A study of Rattus norvegicus with 10 samples.

Results

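The cytosolic ribosomal protein genes encode the proteins of the large (60S) and small (40S) ribosomal subunits. They were taken as the rows whose symbol has the form Rpl or Rps followed by a number and at most a short copy suffix, together with Rplp0, Rplp1, Rplp2 and Rpsa, with an expected count of 10 or more in at least 5 of the 10 libraries. The symbol pattern found 82 of the 17168 listed genes and the count minimum kept 80, of which 47 belong to the large and 33 to the small subunit. All 80 reached the minimum in all 10 libraries, so none was kept through 1 group alone. The 2 that were left out, Rpl3l and Rpl39l, had expected counts of at most 11 and 3 in any library.

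Each of 10 libraries came from the left hippocampus of one female TgF344-AD rat, going by the tags in the titles. In the ibudilast group 5 rats ate chow with ibudilast, a phosphodiesterase inhibitor, from 5 months of age for 6 months. In the untreated group 5 rats ate plain rodent chow. All rats were dissected at 11 months of age. TgF344-AD rats are a transgenic model of Alzheimer's disease whose transgenes, among them human APP with the Swedish mutation, are known to be driven by the mouse prion promoter. Both groups are transgenic, and no wild-type rats were analysed here.

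Ribosomal proteins are made in equal amounts and assembled with ribosomal RNA in the nucleolus, and their mRNAs are among the most abundant of a cell. Most of these mRNAs begin with a 5′ terminal oligopyrimidine tract (TOP), a C followed by an unbroken stretch of C and T bases, through which mTOR and the RNA-binding protein LARP1 control their translation and stability. In neurons ribosomal protein mRNAs are also found in axons and dendrites.

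The start sites of several members are shown first, since they set the ordinary genes beside their copies. In each sequence 20 bases before the annotated start are followed by the first 20 bases of the transcript, so that the start is base 21, and capitals mark every unbroken run of at least 5 C or T bases. Rpl22, Rps27 and Rps4x are followed by their copies Rpl22l1, Rps27l and Rps4y2, and then come the genes with the largest and the smallest difference of each subunit.
Rpl22: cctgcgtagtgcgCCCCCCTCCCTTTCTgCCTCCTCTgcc
Rpl22l1: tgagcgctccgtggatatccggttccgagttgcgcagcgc
Rps27: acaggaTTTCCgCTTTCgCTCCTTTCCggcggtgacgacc
Rps27l: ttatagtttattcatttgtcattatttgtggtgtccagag
Rps4x: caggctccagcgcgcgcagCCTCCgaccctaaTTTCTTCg
Rps4y2: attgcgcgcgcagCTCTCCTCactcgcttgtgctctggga
Rps28: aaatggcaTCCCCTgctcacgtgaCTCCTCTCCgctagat
Rpl38: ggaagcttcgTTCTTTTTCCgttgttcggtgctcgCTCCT
Rps3a: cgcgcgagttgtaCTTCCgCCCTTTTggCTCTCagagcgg
Rpl6: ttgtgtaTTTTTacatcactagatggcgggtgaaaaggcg

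These windows are RefSeq sequence of the GRCr8 build and lie at chr5:168117941-168117980 (plus strand) for Rpl22 and chr2:113683176-113683215 (plus) for Rpl22l1. Those of Rps27 and Rps27l lie at chr2:177964587-177964626 (minus) and chr8:76443638-76443677 (plus), and those of Rps4x and Rps4y2 at chrX:71342902-71342941 (minus) and chr4:183000893-183000932 (plus). Rps28 lies at chr7:15311314-15311353 (minus), Rpl38 at chr10:100200415-100200454 (plus), Rps3a at chr2:173827023-173827062 (minus) and Rpl6 at chr12:41011671-41011710 (minus). The expected counts were made on rn6, so these coordinates identify the sequences and not the counted features. An annotated start can lie some bases from the start used in the tissue: in Rpl38 a run of 10 C or T bases ends just before it. At Rpl22 and Rps27 a run crossed the start, whereas the windows of Rpl22l1 and Rps27l held no run at all.

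Of the 80 members, 65 had a start site in the RefSeq table. A run of at least 5 C or T bases that began at the annotated start was found in 34 of these 65 (52.3%), against 1590 of all 33469 windows in the table (4.75%). Only the strand that reads as the transcript was searched, and the run may be part of a longer one. Anywhere from 20 bases before to 20 after the annotated start, 59 of the 65 members (90.8%) held such a run, against 55.7% of all windows. A member without a run at the annotated start can therefore hold one nearby. In both counts a member entered once, by its longest run over its windows, whereas all windows were counted singly, those of members included. Members with a run that began at the annotated start had a median log2 fold change (ibudilast over untreated) of -0.70. The median was -0.64 for members without a run at that base. Among the tested genes that are no members, 347 had a run at the start, and 58 of these were lower and 64 higher with ibudilast, the median being -0.01. The other 8354 tested genes with a start site had a median of 0.02.

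Total expected counts ran from 7553804 to 10121571 in ibudilast and from 6960066 to 8204390 in untreated libraries. The marker genes of hippocampal principal cells were present, and most of them were lower with ibudilast. Of 10 tested 6 were called lower and none higher, beside 18.5% of all tested genes lower. Their summed levels were 1062 to 3867 CPM in ibudilast and 4461 to 8534 CPM in untreated libraries, mostly from Nrgn and Hpca. Wfs1 went the other way in most libraries. It stood at 195 to 407 CPM in ibudilast, 67.0 to 82.8 CPM in untreated 1, 2, 3 and 5, and 596 CPM in untreated 4. CPM are counts scaled to a common library size with TMM factors. Neocortical markers summed to 281 to 799 CPM in ibudilast and 185 to 229 CPM in untreated libraries (5 of 7 tested called higher, none lower). Cerebellar markers reached 3404 CPM in ibudilast 3 and meningeal fibroblast markers 1140 CPM in ibudilast 5, while choroid plexus markers reached 2582 CPM in untreated 1. Results for the members are therefore also given without these 3 libraries. That does not remove the wider difference between the groups. In the remaining ibudilast 1, 2 and 4, neocortical markers summed to 422, 750 and 799 CPM. Hippocampal principal cell markers summed to 3867, 3371 and 3324 CPM there. Treatment and tissue content cannot be told apart, and the part of tissue content in the members' fall was not tested.

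The comparison asks how the level of each ribosomal protein mRNA differs between treated and untreated transgenic females. Ribosomal protein mRNAs were lower in the ibudilast libraries across both subunits. Of 80 members 77 fell (adjusted p under 0.05, Benjamini-Hochberg, in edgeR's quasi-likelihood test) and 0 rose, where 18.5% of all 11682 tested genes were called lower and 38.5% in either direction. All 80 estimates were negative, from -1.03 to -0.33 on the log2 scale. Their median was -0.66, a fold of 0.632, against 0.01 for all tested genes. The 3 that did not pass were Rpl37a, Rps27l and Rps4y2. Without ibudilast 3, ibudilast 5 and untreated 1, 71 fell and 0 rose (11.6% of all tested genes lower), with a median of -0.65. The libraries are of whole tissue, so fewer cells of a type and less RNA per cell cannot be told apart. The p-values weigh the difference between the groups against the spread between rats, with 5 rats in each group.

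**Figure D1:**
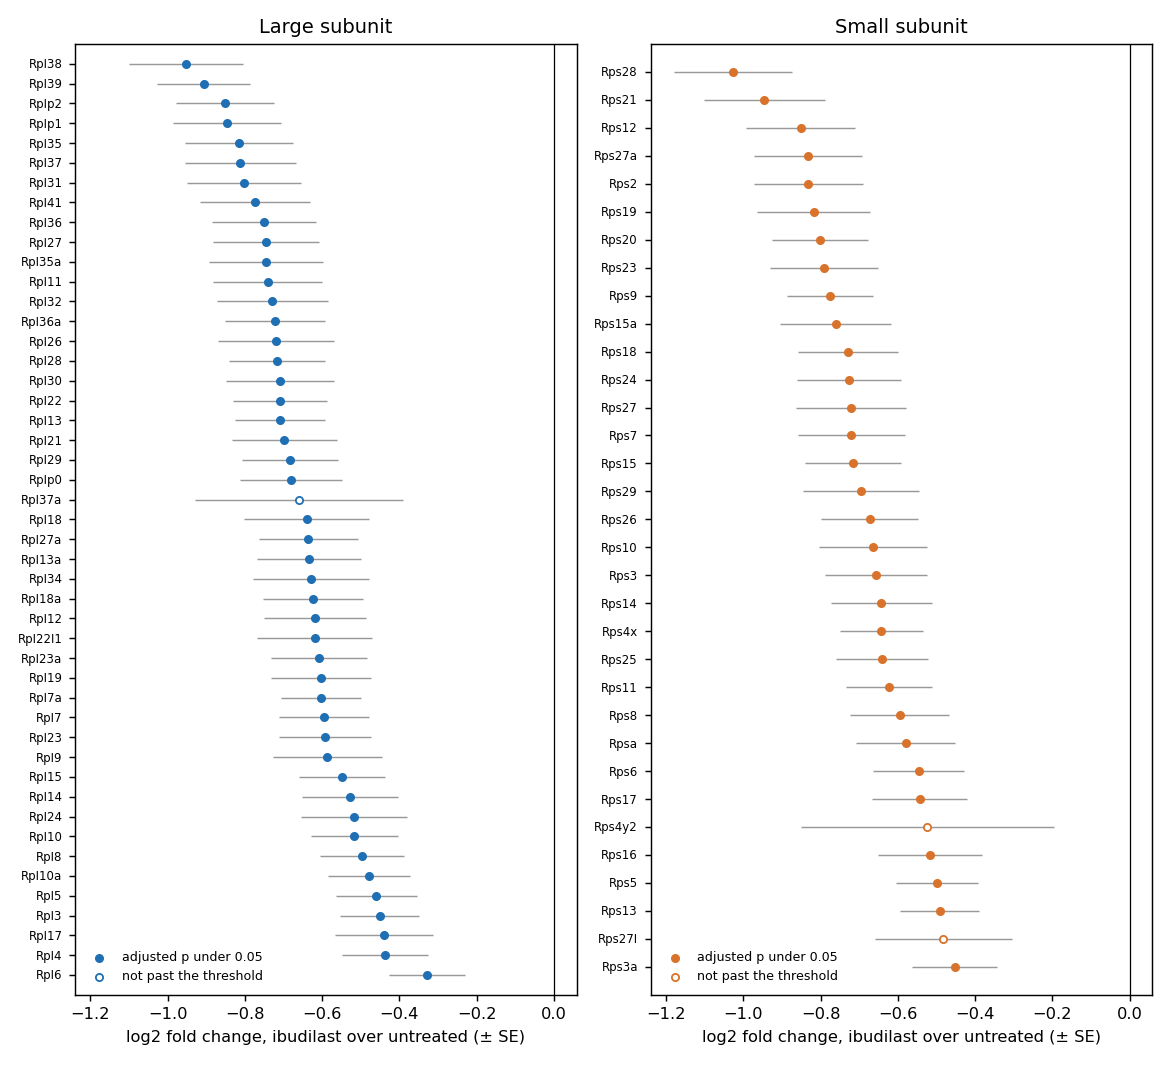
Log2 fold change of each of the 80 ribosomal protein genes (x axis, ibudilast over untreated, with its SE) for the large subunit (left, 47 genes) and the small subunit (right, 33 genes), with filled points for adjusted p under 0.05. All points lie below 0, from Rps28 at -1.03 to Rpl6 at -0.33, and 3 open points mark Rpl37a, Rps27l and Rps4y2.

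The members took a smaller share of all counts in each ibudilast library than in any untreated one. They made up 1.82%, 1.46%, 1.83%, 1.49% and 1.64% of the expected counts in ibudilast 1 to 5, against 2.70%, 3.12%, 2.44%, 2.25% and 1.96% in untreated 1 to 5. The means were 1.65 ± 0.174% and 2.49 ± 0.444% (SD, n = 5 each). Relative to its mean over the untreated libraries, the median member lay between -0.73 (ibudilast 2) and -0.49 (ibudilast 1) on the log2 scale in the ibudilast libraries. Untreated libraries were the more scattered: untreated 2 was the highest untreated library for 74 of the 80 members and untreated 5 the lowest for 78. The median member stood at 0.32 on the same scale in untreated 2 and at -0.38 in untreated 5. The SD of these medians was 0.10 in the ibudilast and 0.27 in the untreated group, beside a difference of -0.65 between the group means. For 72 of 80 members every ibudilast library was below every untreated one, where 11.7% of all tested genes were separated in that direction. The 8 that overlapped were Rpl9, Rpl17, Rpl18, Rpl24, Rpl34, Rpl37a, Rps16 and Rps4y2. In all of them but Rps4y2 it was untreated 5 that reached below the highest ibudilast library.

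**Figure D2:**
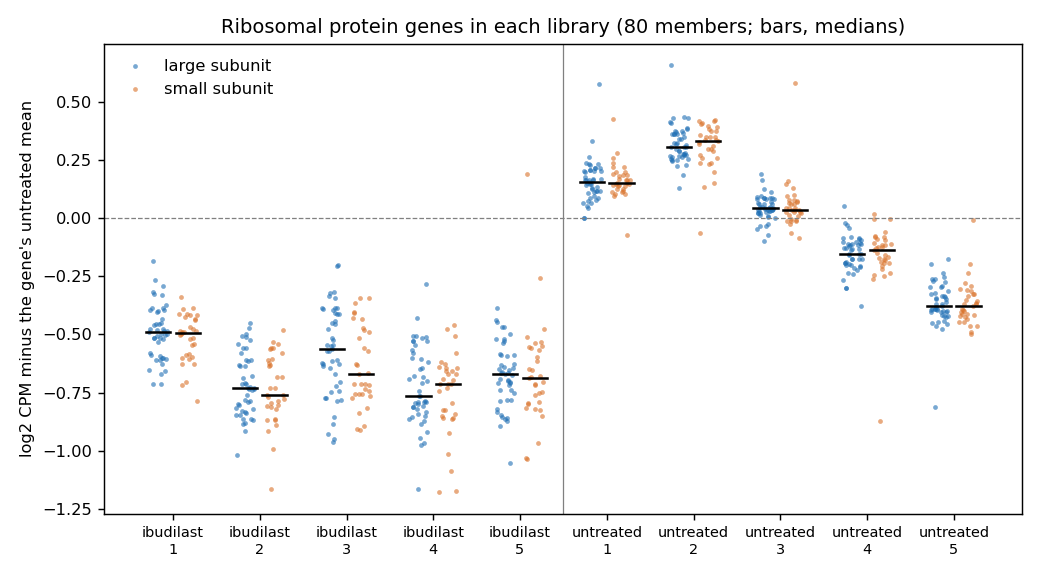
Each point is one of the 80 members in one library, as log2 CPM (with 0.5 added) minus the mean of that gene over the 5 untreated libraries, with large subunit genes in blue, small subunit genes in orange and a bar at each median. The median over the members stood between -0.73 and -0.49 in the ibudilast libraries and at 0.15, 0.32, 0.04, -0.14 and -0.38 in untreated 1 to 5.

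The fall ran beside other differences between the libraries. Members are short genes, with a median genomic span of 3129 bases in the RefSeq table against 24425 for the tested genes, and 76 of 80 span under 10000 bases. In the decile of tested genes with the shortest span, the 1086 genes that are no members had a median log2 fold change of -0.29, and 37.0% of them were called lower and 5.99% higher. The slope of centred log2 CPM on log2 span was 0.02 to 0.07 in ibudilast and -0.09 to -0.0017 in untreated libraries, and it was closest to the ibudilast libraries in untreated 5. With the span trend removed, 66 members fell and 0 rose (18.2% of all tested genes lower), with a median of -0.43. In the fit without span removal, microglia markers fell in 11 of 12 cases, beside 18.5% of all tested genes lower. Their summed levels were 378 to 722 CPM in ibudilast and 831 to 1445 CPM in untreated libraries, and none of them was at 0 throughout. Astrocyte markers fell in 6 of 9 cases (3279 to 4826 against 5111 to 8096 CPM). Markers of oligodendrocyte precursors fell in 3 of 6 cases (246 to 352 against 368 to 430.3 CPM), endothelial markers in 4 of 7 (336 to 595 against 470.4 to 706 CPM) and oligodendrocyte markers in 0 of 8 (5658 to 11751 against 6139 to 18587 CPM). Among 8 pan-neuronal markers 1 fell and 1 rose. Meningeal fibroblast markers rose in 4 of 7 cases, cerebellar markers in 3 of 4 and neocortical markers in 5 of 7. None of these fell, and 2337 of all 11682 tested genes were called higher. The cerebellar sum was 3404 CPM in ibudilast 3 and 32.7 to 75.5 CPM in the other ibudilast libraries. In untreated libraries it was 17.7 to 47.2 CPM. The meningeal sum was 971 and 1140 CPM in ibudilast 3 and 5. It was 35.6 to 85.5 CPM in ibudilast 1, 2 and 4, against 50.0 to 201 CPM in untreated libraries. The part of these cell types in the members' fall was not tested. Ribosomal RNA entries took 2.69% to 7.41% of the counts in ibudilast and 2.63% to 5.26% in untreated libraries.

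In the large subunit 46 of 47 members fell. The median of the 47 log2 fold changes was -0.64 and they ran from -0.95 to -0.33. Rpl38, a gene best known from mice in which its mutation disturbs the body pattern, had the lowest value. It stood at 98.2, 85.5, 82.8, 82.0 and 77.5 CPM in ibudilast 1 to 5, against 190, 202, 181, 131 and 121 CPM in untreated 1 to 5, or -0.95 ± 0.15 on the log2 scale (SE; edgeR adjusted p = 0.00127). The lowest untreated library was above the highest ibudilast one. Rpl39, whose protein lines the tunnel through which the new chain leaves the ribosome, stood at 34.8 to 43.1 CPM in ibudilast and 56.0 to 87.7 CPM in untreated libraries (log2 fold change -0.91 ± 0.12, SE).

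The stalk of the large subunit, which recruits the elongation factors, is made of Rplp0, its anchor, and the small acidic proteins Rplp1 and Rplp2. Rplp2 stood at 154, 136, 134, 128 and 131 CPM in ibudilast 1 to 5, against 279, 294, 253, 225 and 181 CPM in untreated 1 to 5. Every ibudilast library was lower than untreated 5, the lowest of its group. The log2 fold change was -0.85 ± 0.13 for Rplp2, -0.85 ± 0.14 for Rplp1 and -0.68 ± 0.13 for the anchor Rplp0 (SE; edgeR adjusted p = 0.00122, 0.0016 and 0.00326).

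Rpl5 and Rpl11 form a particle with 5S ribosomal RNA that can bind the ubiquitin ligase Mdm2. Rpl11 averaged 148 ± 16.6 CPM in ibudilast and 247 ± 49.7 CPM in untreated libraries (SD, n = 5 each), and Rpl5 362 ± 22.2 and 498 ± 68.4 CPM. Their log2 fold changes were -0.74 ± 0.14 and -0.46 ± 0.11 (SE). Rpl13a, known in human monocytes for a role in silencing inflammatory mRNAs, averaged 339 ± 35.7 CPM in ibudilast and 526 ± 96.1 CPM in untreated libraries. Rpl10, an X-linked gene whose protein joins the subunit late in assembly, averaged 221 ± 14.2 and 316 ± 50.3 CPM, and Rpl7, whose expected counts were not whole, averaged 231.6 ± 23.5 and 350.1 ± 51.2 CPM. All 5 passed the test (edgeR adjusted p = 0.00294 to 0.00653), but Rpl10 did not with the span trend removed (log2 fold change -0.22, edgeR adjusted p = 0.0696).

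Rpl6 had the smallest difference of all members. It stood at 307, 255, 279, 287 and 266 CPM in ibudilast 1 to 5, against 369, 408, 354, 312 and 309 CPM in untreated 1 to 5, or -0.33 ± 0.10 on the log2 scale (SE; edgeR adjusted p = 0.0224). The groups nearly touched, with ibudilast 1 just under untreated 5. Rpl6 did not pass without ibudilast 2 (adjusted p = 0.06), ibudilast 5 (0.0549) or untreated 1 (0.0516). Rpl4, whose protein reaches into the exit tunnel, had -0.44 ± 0.11, Rpl17 had -0.44 ± 0.13, and Rpl3, whose protein lies beside the catalytic centre, had -0.45 ± 0.10 (SE). Rpl4, Rpl6 and Rpl17 did not pass without ibudilast 3, ibudilast 5 and untreated 1 together, nor with the span trend removed (edgeR adjusted p = 0.0514, 0.229 and 0.157 in the second case).

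In the small subunit 31 of 33 members fell. Here the median was -0.67 and the range -1.03 to -0.45. Rps28 had the lowest value of all members. It stood at 74.9, 57.6, 68.6, 56.9 and 65.9 CPM in ibudilast 1 to 5, against 157, 162, 132, 119 and 91.5 CPM in untreated 1 to 5, or -1.03 ± 0.15 on the log2 scale (SE; edgeR adjusted p = 0.00121), a fold of 0.49. The groups did not overlap. Rps21 followed with 118 to 146 CPM in ibudilast and 172 to 316 CPM in untreated libraries (-0.95 ± 0.16), and Rps12 with 134 to 167 and 200 to 334 CPM (-0.85 ± 0.14).

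Rps27a encodes a fusion of ubiquitin and a small subunit protein, so that its mRNA supplies both. It stood at 270, 220, 236, 232 and 231 CPM in ibudilast 1 to 5, against 473, 539, 434, 351 and 322 CPM in untreated 1 to 5 (log2 fold change -0.83 ± 0.14, SE; edgeR adjusted p = 0.00167). No ibudilast library reached the lowest untreated value. Rps19, the gene most often mutated in human Diamond-Blackfan anaemia, averaged 184 ± 15.4 CPM in ibudilast and 324 ± 72.6 CPM in untreated libraries (SD, n = 5 each). Rps6, whose protein is phosphorylated by the S6 kinases downstream of mTOR, averaged 280 ± 15.1 and 409 ± 69.5 CPM, and Rpsa, which also gives rise to a laminin receptor, 341 ± 25.5 and 509.5 ± 94.0 CPM. The smallest called differences of this subunit were those of Rps3a at -0.45 ± 0.11 and Rps13 at -0.49 ± 0.10 (SE). With the span trend removed neither passed (Rps3a -0.25, edgeR adjusted p = 0.0554, and Rps13 -0.21, edgeR adjusted p = 0.0589).

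The subunits moved by similar amounts, with a small shift in their ratio. The summed counts of large over small subunit members stood at 1.63, 1.61, 1.66, 1.63 and 1.63 in ibudilast 1 to 5, against 1.57, 1.57, 1.59, 1.58 and 1.60 in untreated 1 to 5. The means were 1.63 ± 0.0166 and 1.58 ± 0.0136 (SD, n = 5 each), and the groups did not overlap. Untreated 5, the untreated library with the smallest share of member counts, also had the highest ratio of its group. The ratio does not depend on the scaling factors. No test of it is given, since it is a score over members chosen with earlier results known, and the difference between the subunits' medians was likewise not tested.

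Within the large subunit the fold change followed the number in the symbol. These numbers go back to the order of the proteins on gels, so that low numbers tend to mark large proteins. The median log2 fold change was -0.49 for the 10 genes from Rpl3 to Rpl10a, -0.62 for the 10 from Rpl11 to Rpl19, -0.70 for the 11 from Rpl21 to Rpl30 and -0.76 for the 12 from Rpl31 to Rpl41. Across 43 genes, with the copy Rpl22l1 and the stalk genes left out, Spearman's rho was -0.81 and Pearson's r was -0.78. Across 30 small subunit genes rho was -0.42 and r was -0.44. These genes were measured in the same 10 libraries and are no independent replicates. With log2 span, rho was 0.13 over 46 large subunit genes without Rpl29 and 0.26 over 33 small subunit genes. This span is genomic and includes introns, and the length of the transcripts was not examined.

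**Figure D3:**
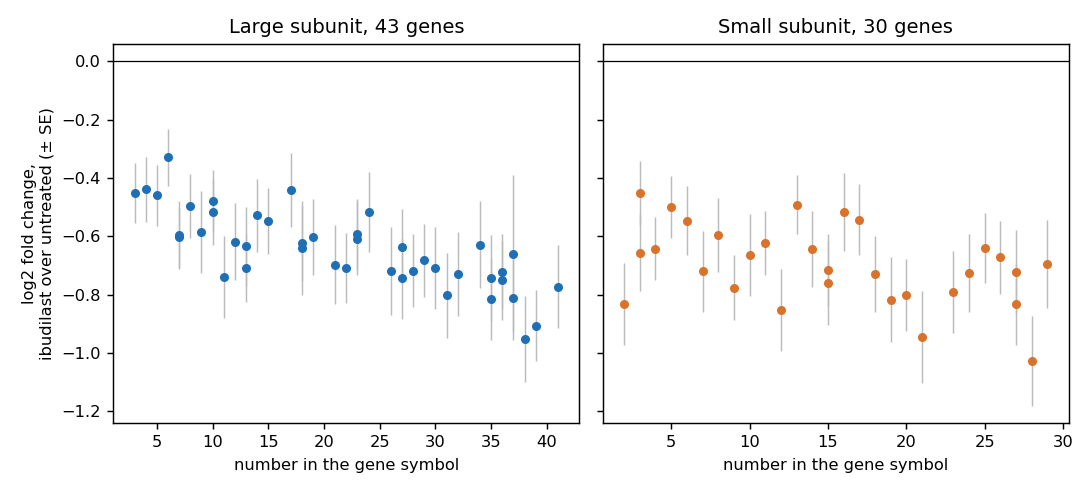
Log2 fold change (y axis, ibudilast over untreated, with its SE) against the number in the gene symbol (x axis) for 43 large subunit genes (left) and 30 small subunit genes (right). In the large subunit the points descend from a median of -0.49 for the lowest numbers to -0.76 for the highest (rho = -0.81), with a looser relation in the small subunit (rho = -0.42).

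The same contrast separated the libraries one by one. The median of Rpl31 to Rpl41 minus that of Rpl3 to Rpl10a, each on the log2 scale relative to the untreated mean, stood at -0.25, -0.28, -0.31, -0.30 and -0.28 in ibudilast 1 to 5. It stood at 0.05, 0.12, 0.06, -0.08 and -0.13 in untreated 1 to 5. The groups did not overlap, and untreated 4 and untreated 5 lay nearest to the ibudilast libraries. No test is given, because the contrast was chosen after the values were seen.

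**Figure D4:**
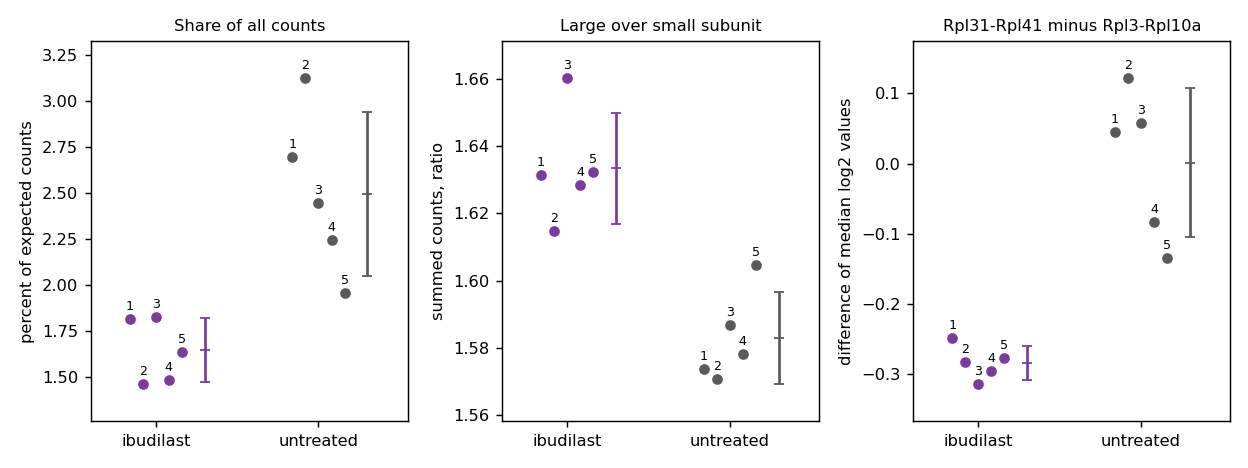
Values of the 10 libraries, numbered by replicate, with the mean and SD of each group beside them: the members' share of all expected counts in percent (left), the ratio of summed large to small subunit counts (middle) and the median log2 value of Rpl31 to Rpl41 minus that of Rpl3 to Rpl10a (right). The groups do not overlap in any of the 3 panels, and untreated 5 is the untreated library nearest to the ibudilast ones in each.

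Several ribosomal protein genes have expressed copies, and each copy was set against its parent gene as a ratio of counts within a library. Of 11 pairs considered, 4 had a copy above the count minimum. None of the 4 differences in ratio passed the exact permutation test. Counts were not corrected for length, so the ratios were compared between the groups and not read as exact relative abundances.

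Rpl22l1, a copy that in mice is held down by the Rpl22 protein and can take its place in the ribosome, fell together with its parent. It stood at 25.3, 21.5, 19.9, 24.5 and 18.6 CPM in ibudilast 1 to 5, against 41.8, 37.8, 35.1, 26.8 and 26.9 CPM in untreated 1 to 5 (log2 fold change -0.62 ± 0.15, SE; edgeR adjusted p = 0.00836). No ibudilast library reached the untreated ones, although ibudilast 1 lay close to untreated 4 and untreated 5. Its adjusted p was 0.0757 without ibudilast 3, ibudilast 5 and untreated 1, and 0.0763 with the span trend removed. Rpl22 stood at 47.3 to 55.3 CPM in ibudilast and 62.2 to 98.3 CPM in untreated libraries (-0.71 ± 0.12). The log2 ratio of Rpl22l1 to Rpl22 averaged -1.22 ± 0.227 in ibudilast and -1.31 ± 0.177 in untreated libraries (SD, n = 5 each), a difference of 0.09 (two-sided exact permutation p = 0.516, adjusted over the 4 pairs 0.849).

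Rps27l, a copy of Rps27, was measured with 33 to 61 expected counts per library. It stood at 5.08, 4.27, 5.07, 3.87 and 5.40 CPM in ibudilast 1 to 5, against 8.98, 6.24, 6.15, 6.17 and 5.66 CPM in untreated 1 to 5. The groups were separate, yet the gene just missed the threshold (log2 fold change -0.48 ± 0.18, SE; edgeR adjusted p = 0.0502). Rps27 itself averaged 129 ± 11.2 CPM in ibudilast and 213 ± 46.9 CPM in untreated libraries. The log2 ratio of Rps27l to Rps27 averaged -4.76 ± 0.171 in ibudilast and -4.98 ± 0.309 in untreated libraries (difference 0.22, exact permutation p = 0.206, adjusted 0.825).

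Rps4y2, which lies on chromosome 4 in the rat and spans only 934 bases, had 15 to 56 expected counts per library. It stood at 1.76 to 5.31 CPM in ibudilast and 2.28 to 7.11 CPM in untreated libraries, which overlapped (edgeR adjusted p = 0.224). Its parent Rps4x, an X-linked gene, averaged 190 ± 14.6 and 296.9 ± 41.01 CPM (log2 fold change -0.64 ± 0.11, SE). The log2 ratio of Rps4y2 to Rps4x differed by 0.11 (exact permutation p = 0.706, adjusted 0.849). Rpl36al, which the symbol pattern leaves out, fell by 0.75 ± 0.13 on the log2 scale (SE), and its ratio to Rpl36a differed by -0.03 (exact permutation p = 0.849, adjusted 0.849). A p that misses the threshold does not show that a copy and its parent moved alike.

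**Figure D5:**
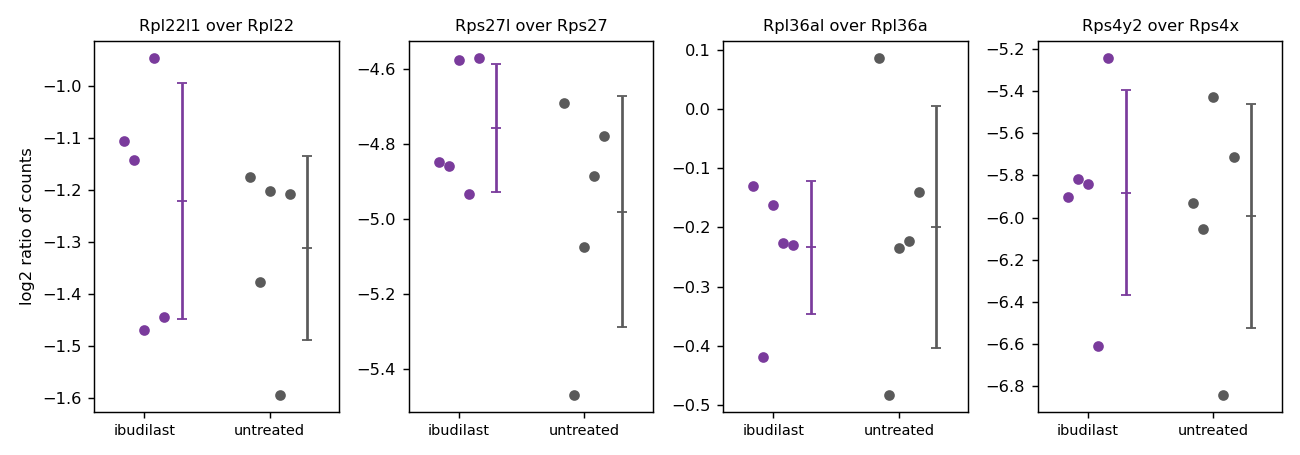
Log2 ratio of the counts of a copy to those of its parent gene (y axis) in each of the 5 ibudilast and 5 untreated libraries for 4 pairs, with mean and SD beside the points. The groups overlap in every panel, with differences in means of 0.09, 0.22, -0.03 and 0.11 from left to right.

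The expected counts of 13 members were not whole in at least 1 library, which is how RSEM shares reads between near-identical transcripts, and 67 members had whole counts throughout. Rpl37a, which did not pass the test, is among the 13. It stood at 74.5, 67.9, 72.8, 42.8 and 70.8 CPM in ibudilast 1 to 5, against 144, 152, 93.5, 74.3 and 54.9 CPM in untreated 1 to 5, and it overlapped between the groups (log2 fold change -0.66 ± 0.27, SE; edgeR adjusted p = 0.0723). Its annotated copy Rpl37a-ps1 held 772 to 1112 expected counts in ibudilast and 1110 to 1965 in untreated libraries. With the counts of both summed, a fit chosen after seeing the data, the log2 fold change was -0.72 (edgeR adjusted p = 0.00583). The other 12 were not refitted in this way. In all, 8 members, among them Rpl7 and Rpl17, had non-whole counts in all 10 libraries.

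Ribosomal components outside the symbol pattern were lower as well. Of 5 tested genes 4 fell, all but Rps19bp1 (log2 fold change 0.06, edgeR adjusted p = 0.778), beside 18.5% of all tested genes lower. Fau, which encodes a fusion of a ubiquitin-like protein with a small subunit protein, averaged 263 ± 22.1 CPM in ibudilast and 413 ± 73.4 CPM in untreated libraries (SD, n = 5 each). Gnb2l1, which encodes the scaffold RACK1 on the small subunit, fell by 0.34 ± 0.10 on the log2 scale (SE; edgeR adjusted p = 0.0226).

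Other genes of protein synthesis were mixed. Of 15 elongation and recycling factors 6 fell and 1, Gtpbp1, rose, and the median of the list was -0.13. Of all 11682 tested genes 18.5% were called lower and 2337 higher. Eif5a, which helps the ribosome past stretches of proline, fell by 0.70 ± 0.12 on the log2 scale (SE), and Eef1d and Eef1b2, which reload elongation factor 1, by 0.59 ± 0.10 and 0.52 ± 0.10. Without ibudilast 3, ibudilast 5 and untreated 1, 3 fell and 1 rose, and with the span trend removed 4 fell and 1 rose. Of 14 other transcripts known for a TOP start 9 fell and 1 rose, with a median of -0.35. With the span trend removed 7 fell and 1 rose, beside 18.2% of all tested genes lower. When ibudilast 3, ibudilast 5 and untreated 1 were left out, 8 fell and none rose, beside 11.6% lower. Tpt1, one of the most abundant of these transcripts, averaged 467 ± 23.4 CPM in ibudilast and 777 ± 146 CPM in untreated libraries, and Npm1, which encodes the nucleolar chaperone nucleophosmin, 141 ± 2.59 and 206 ± 13.4 CPM. Btf3, a subunit of a complex that meets the nascent chain, fell by 0.48 ± 0.09, and Eif3e, an initiation factor subunit, by 0.39 ± 0.07.

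Of 37 tested genes that assemble the ribosome in the nucleolus 16 fell and none rose, beside 18.5% of all tested genes lower, and the median of the list was -0.24. With the span trend removed 9 of the 37 fell, beside 18.2% of all tested genes. Without ibudilast 3, ibudilast 5 and untreated 1, 7 fell, beside 11.6%. Fbl, which methylates ribosomal RNA, averaged 23.0 ± 3.48 CPM in ibudilast and 37.8 ± 5.54 CPM in untreated libraries, and Rpf2, which helps to place the 5S particle, 18.7 ± 2.55 and 31.6 ± 2.78 CPM (SD, n = 5 each). Sbds, needed for the release of an anti-association factor, fell by 0.50 ± 0.10 and Ebna1bp2 by 0.41 ± 0.08 on the log2 scale (SE). The share of this list that fell was not compared with that of the members by a test.

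Among regulators, 6 of 15 genes of the mTOR pathway and of TOP mRNA control rose and 3 fell, where 2337 of all 11682 tested genes were called higher and 2160 lower. Long genes were called higher more often in these libraries, with 38.3% of the genes that are no members in the decile of longest span, in which Rptor lies, and 36.4% in the next, in which Mtor lies. With the span trend removed 7 of the 15 rose and 2 fell, where 1823 of all 11682 tested genes were called higher and 2123 lower. Tsc1, which restrains mTOR, averaged 55.6 ± 5.33 CPM in ibudilast and 21.1 ± 3.25 CPM in untreated libraries (SD, n = 5 each; log2 fold change 1.39 ± 0.12, SE; edgeR adjusted p = 0.000268). Mtor itself rose by 0.66 ± 0.10 and Rptor, its partner in the complex that drives growth, by 0.67 ± 0.11 on the log2 scale (SE). Myc, a transcription factor gene that drives ribosome production in dividing cells, averaged 4.22 ± 0.661 and 8.87 ± 1.16 CPM. Of 17 factors that bind the ribosome or the nascent chain 8 fell and 2 rose, and Sec61g, Srp14 and Srp19, which serve protein targeting to the endoplasmic reticulum, fell by 0.74 ± 0.12, 0.59 ± 0.12 and 0.56 ± 0.11.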

How the data were processed

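RNA from 10 hippocampi was sequenced from strand-specific mRNA libraries, per the labels' protocols. The authors' expected counts per gene were made with bcl2fastq 2.17, Bowtie2 2.1.0, RSEM 1.2.15 and rn6, per the submitters' processing notes. For the annotation and for strand use in counting, the sources used here give nothing. The second deposited table is a signal in CPM after TMM scaling, which the authors made with edgeR per those notes. It was used for 2 alternatives (limma-trend with 0.5 or 1 added), over the 17143 symbols that matched. Counts were rounded and tested with edgeR 4.0.16 in R 4.3.3 (TMM, filterByExpr, quasi-likelihood test, ibudilast against untreated), which kept 11682 genes. Ratios of copies to parents (0.5 added) used exact permutation tests in scipy 1.17.1. Alternatives used DESeq2 1.42.0, limma 3.58.1, other scaling and filters, a span trend removed by loess (span known for 98.2% of tested genes, from GRCr8), and libraries left out. The fit was tested on simulated counts. Members, lists, the 3 libraries left out and the rule for named genes were chosen with earlier results of these data known. Named were the 3 lowest and 3 highest log2 fold changes per subunit, members not called, copies with their parents, fixed genes, and up to 4 called genes per list. The relation to symbol numbers and the start-site runs were added after seeing the data. Start sequences are from RefSeq, GRCr8.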

Additional observations from a re-analysis of the deposited data

Results flagged for a closer look

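In 134 groups of 5 libraries, 1 library stood apart from the others in 7 cases (a gap to its neighbour of over 0.71 of the group's range), where chance gives about 1 in 20. Rps27l stood at 8.98 CPM in untreated 1 and 5.66 to 6.24 CPM in the other untreated libraries. Rpl37a stood at 42.8 CPM in ibudilast 4 and 67.9 to 74.5 CPM in the other ibudilast libraries. In ibudilast 1, Rplp1 stood at 544.8 CPM (427 to 459 CPM in the other 4) and Rps19 at 210.4 CPM (174 to 182 CPM). In ibudilast 3, Ebna1bp2 stood at 38.6 CPM (33.2 to 34.5 CPM in the other 4) and Gtpbp1 at 80.1 CPM (51.6 to 56.4 CPM). Mtor stood at 138.6 CPM in untreated 5 and 103.8 to 111.8 CPM in the other untreated libraries.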

How the results depend on the processing

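The number of members called lower was 66 to 79 over the other settings and tools tried and 76 to 78 with 1 library left out, and none was called higher in any of them. The median over the members was -0.73 to -0.58 with 1 library left out. With the span trend removed it was -0.43, and -0.42 and -0.44 for the large and the small subunit. In that fit Rpl29, whose annotated span of 893235 bases is far above that of the other members, had the lowest value, -1.26. Among the named members' values under these settings, 16 lost a call, 10 gained one and none changed sign. Rps27l passed under 7 of the settings. Genes called in the pathway lists together were 63, or 41 without ibudilast 3, ibudilast 5 and untreated 1, a fit with fewer samples. Without those 3 libraries the log2 ratio difference was 0.0124 for Rpl36al over Rpl36a and -0.10 for Rps4y2 over Rps4x, both of the opposite sign. With 1 library left out these ran from -0.105 to 0.0374 and from -0.10 to 0.29. Replicate numbers did not pair the libraries (correlation of deviations for the same number -0.13 to 0.02). With the replicate block 76 members were called lower, with a median of -0.64, and 3535 genes in all. Depth limits Rps27l and Rps4y2, which had at most 61 counts.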

Other observations

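RNA polymerase I makes the ribosomal RNA precursor. Of 13 tested genes of it and its factors 3 rose and 1 fell, where 2337 of all 11682 rose and 2160 fell, and the median of the list was 0.03 on the log2 scale. Polr1a, its largest subunit gene, averaged 30.6 ± 2.51 CPM in ibudilast and 23.2 ± 1.45 CPM in untreated libraries (SD, n = 5 each), Polr1b rose by 0.38 ± 0.11 and Rrn3, an initiation factor gene, by 0.21 ± 0.07 on the log2 scale (SE), while Polr1e fell by 0.45 ± 0.13. Without ibudilast 3, ibudilast 5 and untreated 1, 1 rose and none fell. With the span trend removed 1 rose and 1 fell, where 1823 of all 11682 tested genes were called higher and 2123 lower.

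Of 9 tested genes of ribosome quality control and stress 3 rose and 2 fell, where 38.5% of all tested genes were called in either direction. Gcn1l1, whose protein senses stalled and collided ribosomes, averaged 163 ± 8.05 CPM in ibudilast and 114 ± 10.2 CPM in untreated libraries, and Eif2ak3, the kinase gene of the unfolded protein response, rose by 0.51 ± 0.11 on the log2 scale (SE). Ddit3, a stress-induced transcription factor gene, averaged 20.1 ± 3.05 and 31.9 ± 3.34 CPM.

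Among the copies with few reads, Rpl3l, the form of striated muscle, had 1 to 4 expected counts in ibudilast and 1 to 11 in untreated libraries. Rpl39l, the form of the testis, had 0 to 2 and 0 to 3.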
